A study of Macaca mulatta with 4 samples.

Results

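The YAP-TEAD genes are the transcriptional arm of the Hippo pathway. They were followed here as 10 named genes, 2 coactivators (YAP1 and WWTR1), 4 DNA-binding partners (TEAD1 to TEAD4) and 4 widely used target genes (CCN1, CCN2, ANKRD1 and AMOTL2), and 9 of the 10 matched a row among the 21314 genes of the table. TEAD4 matched no row and was not analysed here. The RF/6A line, of rhesus macaque origin and labelled as chorioretinal, has been used elsewhere as an endothelial model, and its total RNA was sequenced in 4 libraries titled static. All 4 were of 1 purchased lot, untreated and grown alike in Dulbecco's modified Eagle medium with serum and antibiotics, so no contrast between groups exists, and nothing in the labels says whether the libraries came from separate cultures.

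In the Hippo pathway the kinases STK3 and STK4 activate LATS1 and LATS2, which phosphorylate YAP1 and its relative TAZ (encoded by WWTR1) and so hold them in the cytoplasm or mark them for degradation. Unphosphorylated YAP1 and TAZ enter the nucleus, bind TEAD proteins and switch on genes such as CCN1 and CCN2. Stiff substrate, cell spreading and serum favour the nuclear state in cultured adherent cells. These controls act largely on the proteins, which RNA counts do not measure.

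Each library held between 20366946 and 20550610 estimated counts, here put on a common scale by edgeR's TMM method and expressed as counts-per-million (CPM). Library 2 stood apart from the other 3. Ribosomal protein genes took 16.1% of its counts against 6.47% to 7.11% elsewhere, and 15561 genes had a count in it against 16130 to 16265. Rows without a gene symbol held 21.7% of the counts of library 2 against 13.1% to 13.9% elsewhere. The fibroblast and mesenchymal markers were all expressed (at least 1 CPM in every library), where 52.9% of all rows were. Of 11 matched endothelial markers 1 was (PECAM1). Of 6 matched retinal pigment epithelium genes RDH5, BEST1 and RPE65 were, while TYR and RLBP1 had at most 1 count in a library. KDR of the endothelial list and MITF of the pigment epithelium list were under 1 CPM only in library 2, at 0.432 and 0.617 CPM. The value in library 2 is therefore also shown for each gene given by its mean over all 4 libraries. Levels of different genes were not compared, because counts grow with transcript length and no lengths were at hand.

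Of the 9 matched members, 7 were expressed, meaning at least 1 CPM in every library, and 9 were when library 2 was left out. That rule was met by 52.9% of all rows. The exceptions were the coactivator gene WWTR1 and the transcription factor gene TEAD1, both well detected in libraries 1, 3 and 4 and nearly or wholly missing from library 2. By contrast, the target genes CCN1 and ANKRD1 differed little between any of the libraries.

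**Figure D1:**
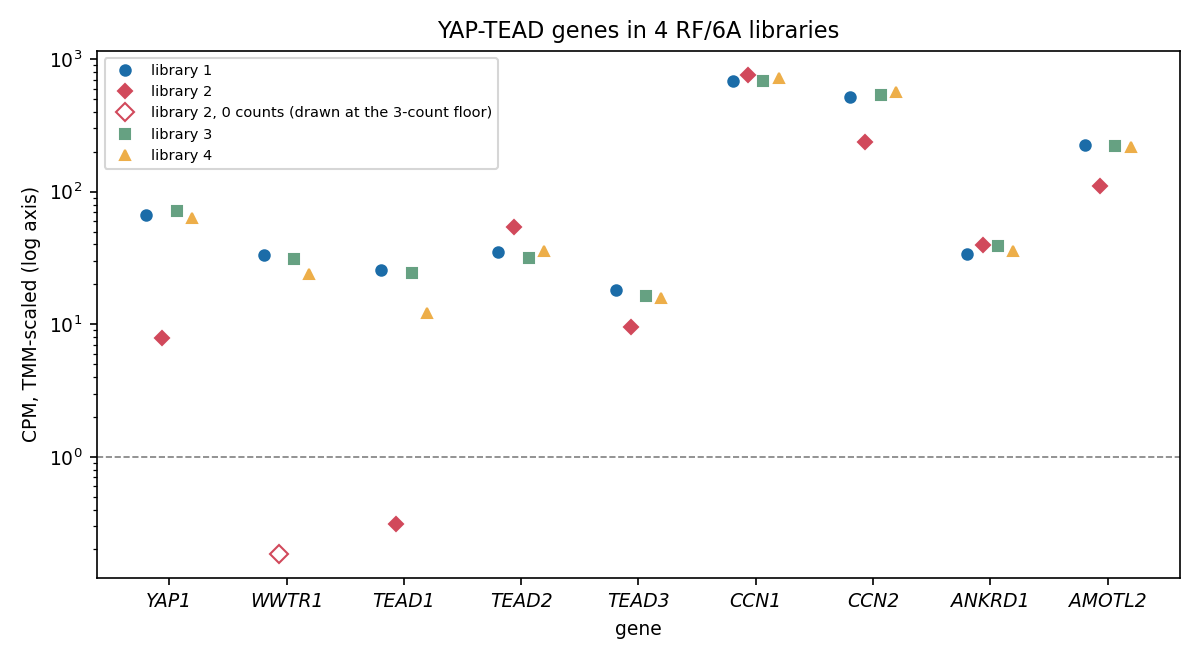
Points show the 9 matched members (x axis) in each of the 4 RF/6A libraries, in TMM-scaled CPM on a log y axis, with a dashed line at 1 CPM. The open diamond is WWTR1 in library 2, which had 0 counts and is drawn at the 3-count floor of 0.185 CPM. YAP1, WWTR1 and TEAD1 are far lower in library 2, whereas CCN1 and ANKRD1 keep near one level.

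YAP1 (ENSMMUG00000003396), the coactivator that gives the pathway its name, measured 66.7, 7.90, 71.4 and 63.0 CPM in libraries 1 to 4. Libraries 1, 3 and 4 lay close together at 67.1 ± 4.21 CPM (SD, n = 3), and library 2 was 8.49-fold lower. Over all 4 the mean was 52.3 ± 29.8 CPM (SD, n = 4).

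WWTR1 (ENSMMUG00000018982), which encodes TAZ, measured 33.3, 0, 31.3 and 24.0 CPM. It had 733, 696 and 531 counts in libraries 1, 3 and 4 and none in library 2. The mean of the others was 29.5 ± 4.90 CPM (SD, n = 3). Set at the 3-count floor of library 2, 0.185 CPM, WWTR1 would lie 160-fold below that mean. The exact 95% Poisson limit for 0 counts was 0.228 CPM, above that floor, so the fold is not a lower bound. Limits of this kind cover counting error only, and reads assigned to another row would not be seen.

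A count of 0 in library 2 was rare for a gene at this level. Of 6476 genes averaging 20 CPM or more in the other 3 libraries, 8 (0.124%) had no count in library 2. Among them 3 carried a symbol, WWTR1, KPNA2 (a nuclear import receptor) and LARP1 (an RNA-binding protein), which were picked out after their values were seen.

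TEAD1 (ENSMMUG00000010875), a TEA domain factor that binds DNA for the coactivators, measured 25.5, 0.308, 24.2 and 12.3 CPM. Its 5 counts in library 2 lay 66.9-fold below the mean of the others, 20.6 ± 7.29 CPM (SD, n = 3), and the 95% Poisson interval there ran from 0.100 to 0.720 CPM. TEAD1 is 1 of 16 genes (0.247%) with at most 5 counts in library 2 among the 6476 above.

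TEAD1 was also the member that varied most without library 2. Library 4 had 271 counts against 560 and 538, and its 95% Poisson interval of 10.8 to 13.8 CPM did not overlap those of library 1 (23.4 to 27.7 CPM) or library 3 (22.2 to 26.3 CPM). The coefficient of variation over libraries 1, 3 and 4 was 35.3%, higher than that of 98.4% of the 8576 genes averaging 10 CPM or more. WWTR1 was likewise lowest in library 4 of these 3, with an interval of 22.0 to 26.1 CPM against 31.0 to 35.9 and 29.0 to 33.7 CPM, and a coefficient of 16.6%.

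TEAD2 (ENSMMUG00000014791), the family member best known from early embryos and neural progenitors, measured 35.2, 54.0, 31.6 and 35.6 CPM. It was the only matched TEAD gene with its highest level in library 2, 1.58-fold above the mean of 34.1 ± 2.22 CPM (SD, n = 3) in the others, and library 2 was also highest for it with plain CPM (log2 ratio 0.22 against 0.66 with TMM). TEAD3 (ENSMMUG00000015909) measured 18.2, 9.56, 16.3 and 15.6 CPM, and library 2 was 1.75-fold below the mean of 16.7 ± 1.36 CPM (SD, n = 3).

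The summed CPM of the 3 matched TEAD genes was 63.9 in library 2 and between 63.5 and 78.9 in the others with TMM. With plain CPM it was 50.7 in library 2, below the 68.4 to 85.1 of the others. The make-up of the sum differed, with 0.00571 TEAD1 counts per TEAD2 count in library 2 and 0.724, 0.765 and 0.344 in libraries 1, 3 and 4. A ratio of counts within a library does not depend on how libraries are scaled.

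**Figure D2:**
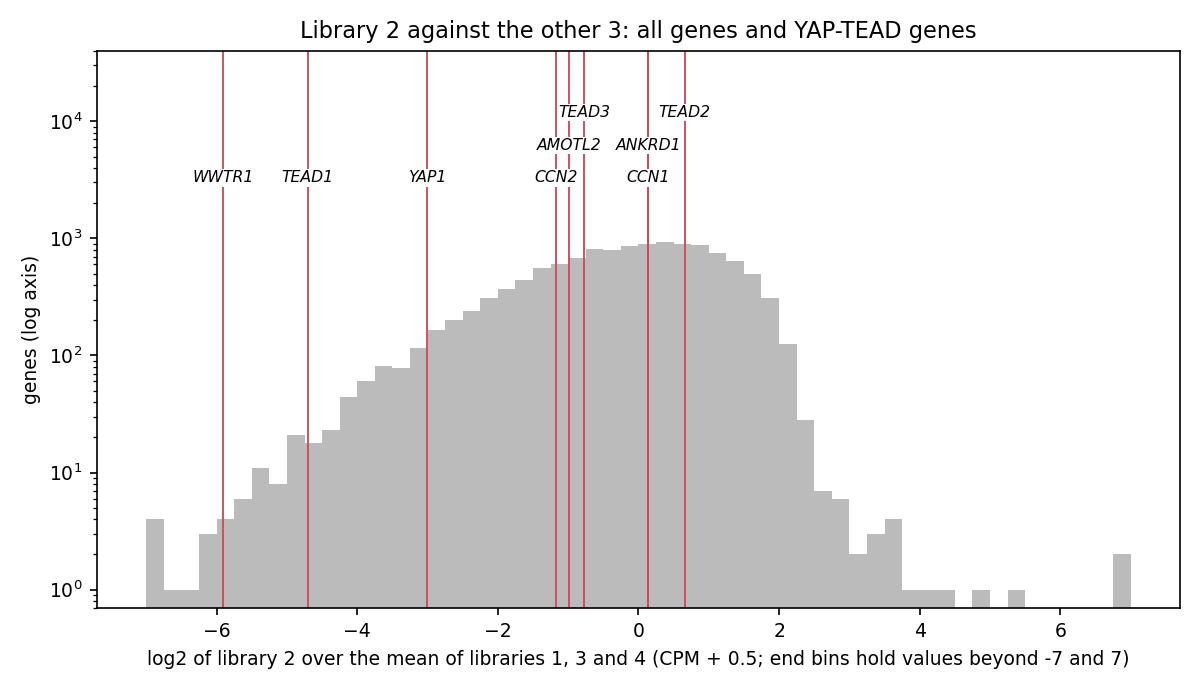
Grey bars count genes (log y axis) by the log2 ratio of their level in library 2 to the mean of libraries 1, 3 and 4, after adding 0.5 CPM, for the 12453 genes averaging 1 CPM or more. Red lines mark the 9 matched members, from WWTR1 at -5.91 to TEAD2 at 0.66, and the median of all genes is -0.08.

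The 4 targets differed less in library 2 than YAP1, WWTR1 and TEAD1 did, and CCN1 and ANKRD1 hardly at all. CCN1 (ENSMMUG00000013197, formerly CYR61), a secreted matricellular protein that binds integrins, measured 684, 763, 687 and 716 CPM. Library 2 was 1.10-fold above the mean of 696 ± 17.4 CPM (SD, n = 3), and with plain CPM it was the lowest instead, at a log2 ratio of -0.31. ANKRD1 (ENSMMUG00000006632), an ankyrin repeat protein of stretched muscle and a standard YAP reporter gene, measured 33.7, 39.8, 38.8 and 35.6 CPM. Its level in library 2 was within the 95% Poisson interval of library 3 (36.3 to 41.5 CPM). It lay above those of library 1 (31.3 to 36.2 CPM) and library 4 (33.2 to 38.2 CPM). The log2 ratio of ANKRD1 was 0.14 with TMM and became -0.30 with plain CPM.

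CCN2 (ENSMMUG00000014150, formerly CTGF), a matricellular protein of fibrosis, measured 519, 238, 534 and 562 CPM. Library 2 was 2.26-fold lower than the mean of 538 ± 21.7 CPM (SD, n = 3) and did not overlap the others. AMOTL2 (ENSMMUG00000021694), an angiomotin-family junction protein that binds YAP1 and is also its target, measured 223, 111, 221 and 216 CPM. It had the smallest coefficient of variation of any member in libraries 1, 3 and 4, at a level of 220.2 ± 3.72 CPM (SD, n = 3), and was 1.98-fold lower in library 2.

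The ratios between targets split in the same manner. Libraries 1, 3 and 4 held 0.759, 0.777 and 0.785 CCN2 counts per CCN1 count, and library 2 held 0.312. For ANKRD1 per CCN1 count the values were 0.0493, 0.0522, 0.0565 and 0.0498 in libraries 1 to 4, so library 2 lay inside the range of the rest. YAP1 gave 0.0975, 0.104 and 0.0881 counts per CCN1 count in libraries 1, 3 and 4 and 0.0103 in library 2, which is 9.32-fold lower.

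Library 2 had the lowest level of 6 of the 9 members and the highest of the other 3 (TEAD2, CCN1 and ANKRD1), where it was lowest for 48.0% and highest for 43.8% of 12453 genes. With plain CPM it was lowest for 8 members, against 59.7% of genes, and highest for TEAD2, against 31.6%. Dixon's gap test, which asks whether 1 library lies far from the rest relative to the whole range, called 3 members (33.8% of genes). These were YAP1, CCN2 and AMOTL2, each with library 2 low, as for 11.2% of genes, and no member had it apart and high, as for 21.8%. The test is less sensitive to a lowered than to a raised library, so the low and high shares are not directly comparable. WWTR1 and TEAD1 were not called, since their other 3 libraries spread too widely for the gap. More than 2-fold lower in library 2, on the scale of CPM + 0.5, were 4 members (YAP1, WWTR1, TEAD1 and CCN2), against 27.1% of genes. More than 8-fold lower were YAP1, WWTR1 and TEAD1, against 3.86%. YAP1 passed that line narrowly, with a log2 ratio of -3.01. With DESeq2 size factors, and with TMM after filterByExpr, YAP1 fell just short of it, at -2.99. Every member passed the filter of an average of 1 CPM, WWTR1 and TEAD1 through libraries 1, 3 and 4. Plain CPM in place of TMM moved the median log2 ratio of all genes from -0.08 to -0.50. It left YAP1 at -3.43, WWTR1 at -6.02 and TEAD1 at -4.94, and it moved the shares of all genes more than 2-fold lower and higher from 27.1% and 19.0% to 36.7% and 9.27%.

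Markers of some other cell types also moved with library 2, and their part in these results was not tested. With TMM, the endothelial markers summed to 7.46 CPM there, within the 7.06 to 10.1 CPM of the others. Haematopoietic markers summed to 16.8 CPM against 15.3 to 16.4 CPM, and photoreceptor and retinal neuron markers to 9.19 against 5.14 to 6.74 CPM. The summed level of the 6 matched epithelial markers was 3592 CPM in library 2 and between 985 and 1122 CPM elsewhere, mostly KRT18. KRT19 and EPCAM were also highest in library 2. CDH1 was lowest there, at 4.56 CPM, 1.65-fold below the mean of the others. ESRP1, under 1 CPM in every library, was also lowest there, and CLDN4 had at most 1 count. The 8 pericyte and smooth muscle markers summed to 828 CPM against 325.0 to 375 CPM, mostly TAGLN. Of their defining genes ACTA2 (16.4 against 5.28 to 5.61 CPM) and DES (9.44 against 3.32 to 4.97 CPM) were also higher in library 2, and CNN1 had at most 3 counts in any library. CSPG4 (34.5 against 55.1 to 61.4 CPM) and RGS5 (1.67 against 3.26 to 4.96 CPM) were lower there, as was NOTCH3, with 1 count. With TMM, library 2 was highest for 4 and lowest for 2 of the 6 averaging 1 CPM or more. The 6 matched retinal pigment epithelium markers summed to 214 CPM against 72.2 to 82.0 CPM, through RDH5. In that list BEST1 (1.48 against 15.1 to 29.8 CPM) and MITF (0.617 against 2.14 to 6.38 CPM) were lower in library 2. The 10 fibroblast and mesenchymal markers summed to 46586 CPM against 41185 to 42887 CPM with TMM, and to 36962 CPM against 44702 to 46146 CPM with plain CPM. They moved apart in library 2, where with TMM the matrix gene FN1 was 4.25-fold lower than the mean of the others, and the filament gene VIM and the collagen gene COL1A1 were 2.30- and 1.85-fold higher. Fewer cells of a type and less RNA per cell cannot be told apart in bulk RNA. Library 2 also had a TMM factor of 0.793 against 1.08 to 1.09 elsewhere. Whether its RNA quality or library preparation differed was not tested.

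**Figure D3:**
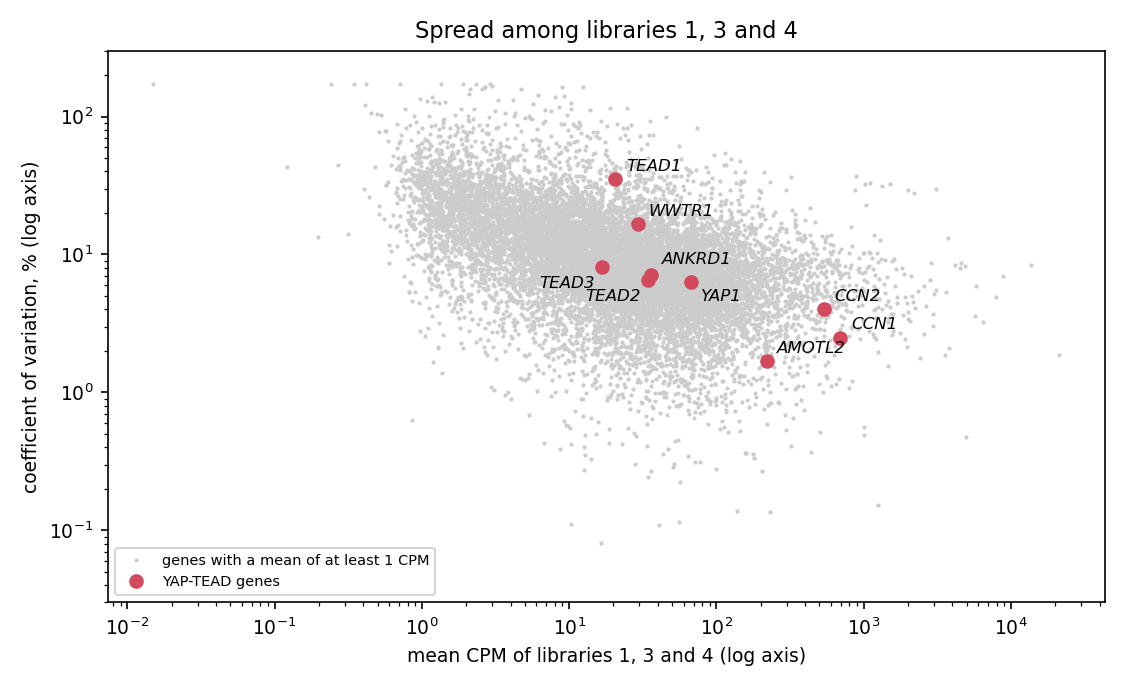
Grey points are the genes averaging 1 CPM or more, placed by their mean CPM in libraries 1, 3 and 4 (log x axis) and their coefficient of variation over those 3 libraries (log y axis), and red points are the 9 matched members. TEAD1 at 35.3% and WWTR1 at 16.6% lie high, and AMOTL2 at 1.69% lies low.

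Without library 2 the members varied less, as did genes in general. The median coefficient of variation of the 9 members was 28.3% over all 4 libraries and 6.50% over libraries 1, 3 and 4, with the 4-library scaling kept. For all genes averaging 10 CPM or more it was 33.1% and 7.13%. AMOTL2 and CCN1 varied less than most, above 4.61% and 9.54% of those genes. Measured against counting error, AMOTL2 had a chi-square per degree of freedom of 1.39 over these libraries, CCN1 9.61, CCN2 19.2 and TEAD1 56.9, where the median gene had 4.92. At a given coefficient of variation this measure grows with the count. CCN1 had 15041 to 15826 counts in these libraries and CCN2 11412 to 12424.

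Most of the upstream regulators were expressed. Of 27 listed Hippo kinases, scaffolds and YAP1-binding proteins 25 matched a row, and 24 were expressed, or 25 without library 2. Over all rows, named or not, the share expressed in all 4 libraries was 52.9%. The kinase adaptors MOB1A and MOB1B matched none. The kinase gene STK3 measured 58.9 ± 25.4 CPM (SD, n = 4) and STK4 12.8 ± 8.16 CPM, their scaffold SAV1 42.6 ± 15.4 CPM (19.6 in library 2), and the next kinases LATS1 and LATS2 41.3 ± 22.8 and 54.5 ± 16.5 CPM (7.40 and 29.8 in library 2). NF2, which encodes the membrane-linked tumour suppressor merlin, measured 88.8 ± 28.1 CPM, with 48.1 CPM in library 2. FRMD6, a FERM-domain activator of the kinases, measured 204 ± 111 CPM (37.9 in library 2), MAP4K4, a kinase parallel to STK3, 112 ± 37.8 CPM (56.3 in library 2), and WWC2, of the KIBRA family, 99.03 ± 63.4 CPM. WWC3 was not expressed by the rule, with 18.2, 0.864, 15.7 and 13.3 CPM.

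Most of this list was low in library 2. Of its 25 matched genes 19 were more than 2-fold lower there, beside 27.1% of all genes, or 21 with plain CPM, beside 36.7%. The median log2 ratio was -1.75 beside -0.08 for all genes, and 4 were more than 8-fold lower, beside 3.86%. These 4 were WWC2 (5.80 CPM against 113 to 140.2 CPM), WWC3, STK4 (1.17 against 13.9 to 20.04 CPM) and the kinase gene MAP4K5 (9.62 against 86.2 to 106 CPM). LATS1 lay at 7.40 CPM there against 47.95 to 56.4 CPM, and STK3 20.9 CPM against 70.3 to 73.5 CPM. With TMM, 4 genes had their highest level in library 2, the kinase genes TAOK2, MINK1 and MAP4K2 and the tumour suppressor RASSF1. Only MAP4K2 of these stayed above the mean of the others with plain CPM, at a log2 ratio of 0.19.

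**Figure D4:**
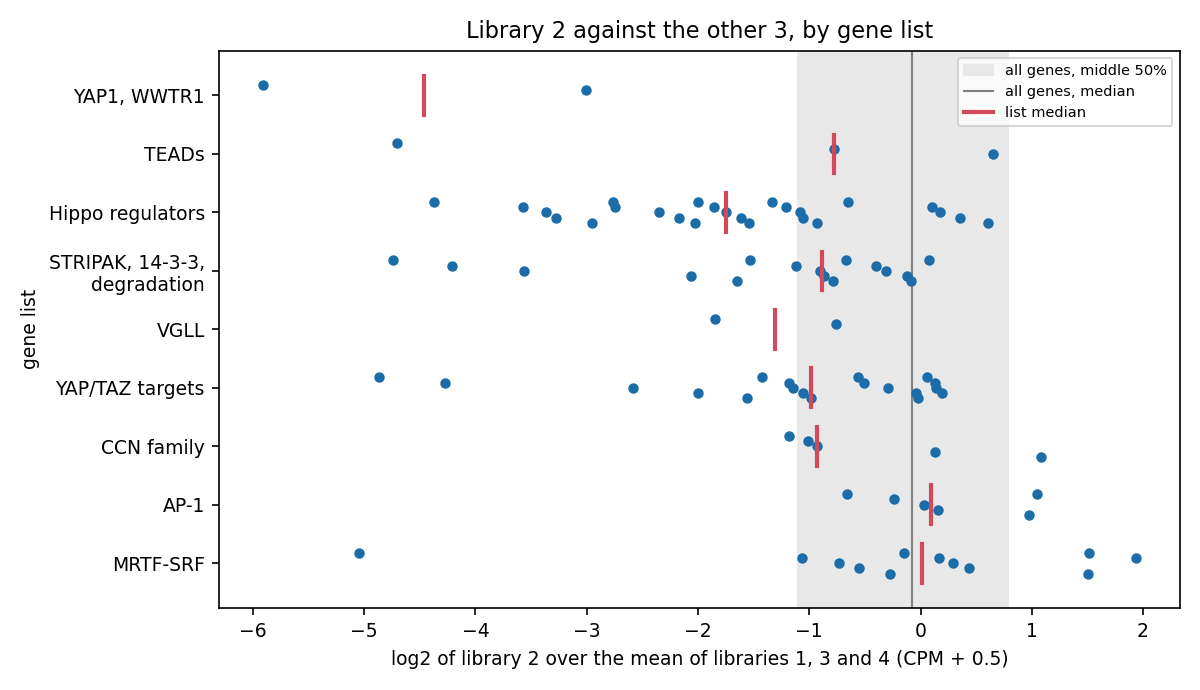
Points are the genes averaging 1 CPM or more in each list (y axis), placed by the log2 ratio of library 2 to the mean of libraries 1, 3 and 4 after adding 0.5 CPM (x axis). Red bars are list medians, the grey line is the median of all genes at -0.08, and the grey band holds their middle 50%. YAP1 with WWTR1 and the Hippo regulators have medians of -4.46 and -1.75, and the MRTF-SRF and AP-1 lists lie at 0.01 and 0.10.

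Genes that handle phosphorylated YAP1 and TAZ, and the phosphatase complex that opposes the kinases, had 16 matched members. Of these 15 were expressed, beside 52.9% of all rows, or 16 without library 2. The 14-3-3 genes YWHAZ, YWHAE and YWHAQ, whose proteins retain phosphorylated YAP1 in the cytoplasm, measured 1103 ± 351, 567 ± 75.6 and 464.5 ± 123 CPM (SD, n = 4), and 587, 481 and 281 CPM in library 2. In that library 7 of the 16 were more than 2-fold lower, beside 27.1% of all genes, or 11 with plain CPM, beside 36.7%, and the median log2 ratio was -0.89. FBXW11, a ubiquitin ligase subunit that marks YAP1 and TAZ for degradation, was 19.6-fold lower there at 7.77 CPM, while its relative BTRC was 1.85-fold lower at 15.9 CPM. CTTNBP2NL, a protein of the STRIPAK phosphatase complex, had 0.308 CPM in library 2 against 17.6 to 24.2 CPM and was the member not expressed. CSNK1D, a kinase that prepares YAP1 for degradation, had library 4 apart and high, at 116 CPM against 99.3 to 101 CPM.

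Of the VGLL genes, whose proteins compete with YAP1 for TEADs, VGLL3 and VGLL4 were expressed at 31.8 ± 15.0 and 16.2 ± 4.06 CPM (SD, n = 4). VGLL3 measured 41.8, 10.4, 42.6 and 32.4 CPM in libraries 1 to 4 and VGLL4 16.0, 10.5, 19.3 and 18.9 CPM, so both were lowest in library 2. VGLL1 and VGLL2 had no count in any library.

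A list of 22 published YAP/TAZ target genes had 19 matched members. It includes CCN1, CCN2, ANKRD1 and AMOTL2 and shares LATS2 and PTPN14 with the list of regulators. All 19 were expressed with or without library 2, where 52.9% of all rows were expressed in the 4 libraries. F3, GADD45A and NUAK2 matched no row. IGFBP3, which encodes a carrier of insulin-like growth factors, averaged 2388 ± 387 CPM (SD, n = 4; 1813 in library 2), CCDC80, a secreted matrix protein, 1157 ± 30.5 CPM, and CCN1 713 ± 36.5 CPM. RBMS3, an RNA-binding protein, measured 3.78, 4.01, 4.85 and 3.57 CPM.

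**Figure D5:**
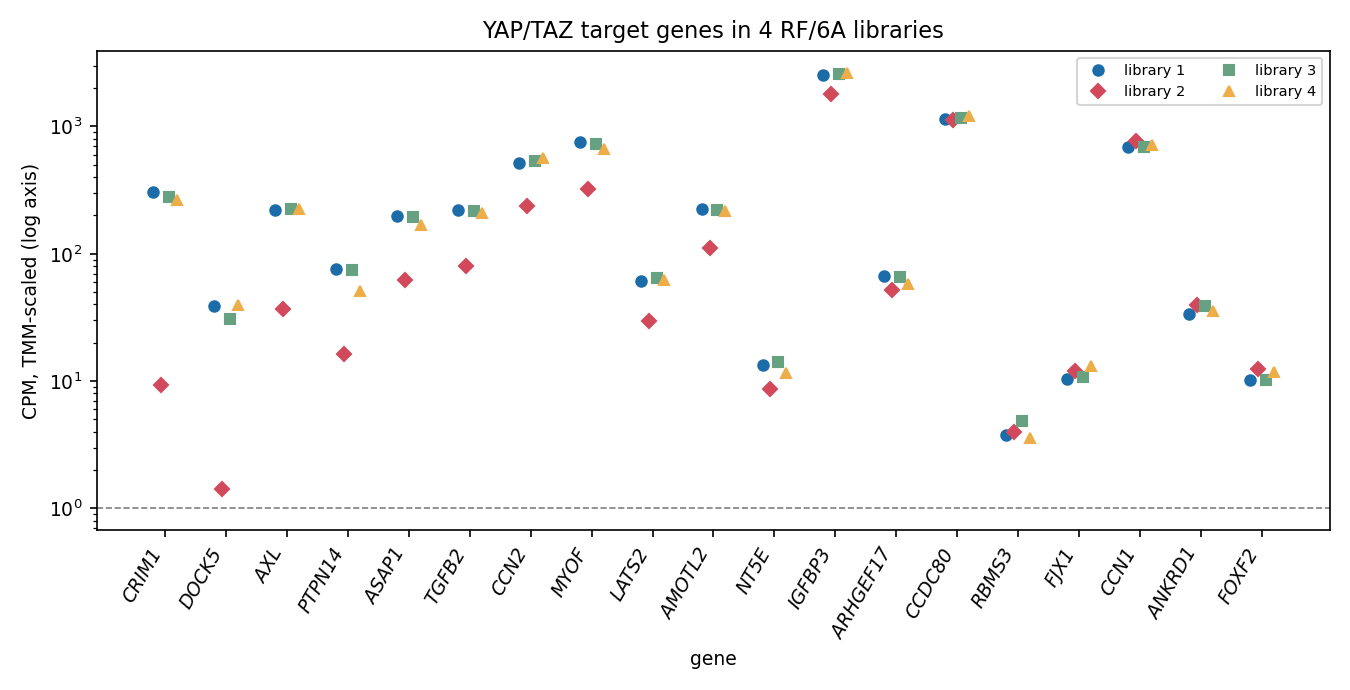
Points show the 19 matched YAP/TAZ targets (x axis, ordered by the ratio of library 2 to the others) in each of the 4 libraries, in TMM-scaled CPM on a log y axis, with a dashed line at 1 CPM. CRIM1 and DOCK5 on the left are far lower in library 2, whereas CCDC80, RBMS3, CCN1 and ANKRD1 on the right lie near the other libraries.

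In library 2 the targets covered the whole range from near loss to no difference. Of the 19, 9 were more than 2-fold lower, beside 27.1% of all genes, or 10 with plain CPM, beside 36.7%, and the median log2 ratio was -0.98. CRIM1, a membrane protein that binds growth factors of the transforming growth factor family, measured 305, 9.25, 279 and 266 CPM, and DOCK5, an activator of Rac, 39.1, 1.42, 31.0 and 39.6 CPM. These 2 were more than 8-fold lower in library 2. AXL, a receptor tyrosine kinase, was steady in libraries 1, 3 and 4 at 223 ± 2.51 CPM (SD, n = 3) and measured 36.8 CPM in library 2. TGFB2, a transforming growth factor ligand, had 80.3 CPM there against 210.0 to 219.6 CPM.

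At the other end of the list, CCDC80 had 1130 CPM in library 2 against 1139 to 1199 CPM. FJX1, a Golgi-linked signalling protein, had 11.9 CPM against 10.4 to 13.2 CPM, and RBMS3 also lay within the range of the others. FOXF2, a mesenchymal forkhead factor, was highest in library 2 at 12.3 CPM against 10.1 to 11.8 CPM with TMM, and its log2 ratio of 0.19 was -0.23 with plain CPM. 

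The remaining CCN genes encode related matricellular proteins. CCN4 measured 342, 184, 386 and 388 CPM and CCN3 115, 62.8, 117 and 128 CPM, both lowest in library 2 by factors of 2.02 and 1.91, near the 2.26 of CCN2. CCN5, which lacks a C-terminal domain of its relatives, was higher in library 2, at 17.3 CPM, 2.19-fold above the mean of the others. CCN6 had no count.

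Target genes of YAP1 often also respond to AP-1 and to serum response factor (SRF) with its MRTF coactivators. Of 8 matched AP-1 genes 6 were expressed, beside 52.9% of all rows. FOSL2 measured 56.8 ± 4.16 CPM (57.9 in library 2), JUND 46.9 ± 20.2 CPM and JUNB 20.2 ± 8.28 CPM (SD, n = 4). JUND and JUNB were highest in library 2, at 76.7 CPM against 31.4 to 39.8 CPM and 32.3 CPM against 14.5 to 18.6 CPM. FOS measured 12.7, 17.7, 17.3 and 17.5 CPM, with library 1 apart and low. FOSB and BATF3 stayed under 1 CPM in every library, and JUN matched no row.

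Of 13 matched MRTF-SRF genes 11 were expressed, beside 52.9% of all rows, or 12 without library 2. SRF measured 44.8, 31.3, 45.7 and 48.1 CPM and MRTFA 46.1, 42.3, 55.8 and 38.4 CPM. MRTFB measured 23.6, 0.493, 45.3 and 28.2 CPM and was, like TEAD1, nearly missing from library 2. The structural targets went both ways in library 2. TPM1, the actin-binding tropomyosin, measured 1955, 2548, 2061 and 2244 CPM, FLNA, which crosslinks actin, 1063, 1186, 986 and 1118 CPM, and VCL, of focal adhesions, 998, 597, 1028 and 961 CPM. TPM2 and TAGLN were 3.83- and 2.86-fold higher in library 2, ACTA2 had 16.4 CPM there against 5.28 to 5.61 CPM, and all of them were more than 2-fold higher with plain CPM too. CNN2 was 2.10-fold and FHL1 1.21-fold lower in library 2, and the smooth muscle gene CNN1 had at most 3 counts in a library. Of the 12 listed genes averaging 1 CPM or more, 2 were more than 2-fold lower there, beside 27.1% of all genes. Another 3 were more than 2-fold higher, beside 19.0%. With plain CPM 3 were lower and 3 higher, beside 36.7% and 9.27%.

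Genes whose profile over the 4 libraries was closest to that of a member were found by the Euclidean distance between centred log2(CPM + 0.5) values among 7438 other named genes averaging 10 CPM or more. For YAP1 they were EXOC4, HIF1A and SLC44A1, at distances of 0.052, 0.056 and 0.062, where the median gene lay at 2.44. HIF1A, the oxygen-regulated transcription factor, measured 409, 52.3, 428 and 391 CPM. CCN2 was closest to DLG1 (0.032, median 1.12), CCN1 to NRDC, ACTR1B and CEP162 (0.018, 0.024 and 0.032, median 0.82) and ANKRD1 to RAB1A, PSAT1 and PANK2 (0.038, 0.044 and 0.048, median 0.83). Among the members themselves the closest pairs were CCN1 with ANKRD1, at 0.15, and CCN2 with AMOTL2, at 0.20. These distances rest on 4 libraries and largely on library 2.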

How the data were processed

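Estimated counts per rhesus Ensembl gene were deposited by the authors for 4 libraries, as whole numbers. The submitters' processing notes name Salmon and DESeq2 with no version or role. No build, annotation, library kit or strandedness was given in the sources used here. Because Salmon shares reads among similar transcripts, close paralogs carry an assignment error. Symbols came from a table of current Ensembl identifiers, which named 14654 of the 21314 rows and 94 of the 108 distinct pathway genes. Rows without a symbol held 21.7% of the counts in library 2 and 13.1% to 13.9% in the others. Counts were scaled by TMM in edgeR 4.0.16 (R 4.3.3, factors from all rows with a count), with plain CPM and DESeq2 1.42.0 size factors as alternatives. Values without library 2 keep the 4-library scaling, whereas leave-one-out values were scaled again. With 1 group there was no test between groups, and spreads describe these 4 samples, which may be technical repeats. The gap test was tested on simulated data, and it is less sensitive to a lowered than to a raised library. A planned ranking of members per kilobase was not run, since no transcript lengths were at hand, and no sequences are printed. The members, lists and rule for naming genes (all members; in each list the 3 with the highest mean CPM, used only to choose names, any not expressed, any with a library apart; the 3 nearest profiles, of which only the nearest is reported here for CCN2) were chosen with earlier results of these data known. Other genes named in the lists were chosen after their values were seen.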

Additional observations from a re-analysis of the deposited data

Results flagged for a closer look

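A library lay apart from the other 3 by Dixon's gap test in 25 of 97 values run, 22 of 88 genes and 3 of 9 count ratios. Chance gives about 1 in 20, and a library lay apart for 33.8% of all 12453 genes averaging 1 CPM or more. Values from the same libraries are dependent. Library 2 was low for 15 genes, high for 5, and another library stood apart for 2. Over all genes it was low in 11.2% and high in 21.8%, by a test less sensitive to a lowered than to a raised library.

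Library 2 was low for the coactivator gene YAP1 (7.90 CPM), the targets CCN2 (238 CPM), AMOTL2 (111 CPM), AXL (36.8 CPM), IGFBP3 (1813 CPM), CRIM1 (9.25 CPM) and TGFB2 (80.3 CPM), and LATS2 (29.8 CPM), which is both target and regulator. It was low for the regulators STK3 (20.9 CPM), SAV1 (19.6 CPM), FRMD6 (37.9 CPM) and STK38 (11.5 CPM), for SLMAP (58.7 CPM) and YWHAQ (281 CPM), and for the focal adhesion gene VCL (597 CPM).

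Library 2 was high for the contractile genes TPM2 (1983 CPM), TAGLN (764 CPM) and ACTA2 (16.4 CPM) and for the ribosomal protein genes RPL4 (11273 CPM) and RPL13A (5661 CPM). Library 4 was high for CSNK1D (116 CPM) and library 1 low for FOS (12.7 CPM). Library 2 was also low for the counts of CCN2 (0.312), AMOTL2 (0.146) and YAP1 (0.0103) per count of CCN1.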

How the results depend on the processing

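The count of expressed members was 7 under plain CPM, DESeq2 size factors, TMM after filterByExpr and a 5 CPM threshold, and 7 to 9 with each library left out. Without library 2, both coactivator genes were expressed in place of 1 (1 to 2 over the libraries left out). Leaving out each library gave a CCN1 mean of 694 to 751 CPM and a median coefficient of variation of the members of 6.60% to 35.0%, where the value over all 4 was 28.3%. Members with a library apart numbered 3 with plain CPM and 4 with DESeq2 size factors or log2 values. The library 2 log2 ratio changed sign with plain CPM for CCN1 (-0.31), ANKRD1 (-0.30) the medians of the AP-1 (-0.34) and MRTF-SRF lists (-0.43) and the summed level of the fibroblast and mesenchymal markers (-0.30), an alternative chosen after seeing the data. The ranking per kilobase and its alternatives were not run. No paired analysis was possible because there is 1 group. A count of 3 was 0.135 to 0.185 CPM in a library, and lower levels cannot be told from 0.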
